A study of Mus musculus with 10 samples.

Results

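The 10 genes described here code for the enzymes of the pentose phosphate pathway, with H6pd, Idh1 and Me1 as further sources of NADPH: G6pdx, Pgls, Pgd, Rpe, Rpia, Tkt, Taldo1, H6pd, Idh1 and Me1. They were taken by symbol from a table of 57010 Ensembl mouse genes, and all 10 were found and passed the low-count filter. They were chosen by their function with the knockout against wild-type values of these libraries already known, so those values are given as a description. The adjusted p-values printed for them come from fits over all tested genes.

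The RNA came from whole mammary tumours, untreated, taken 5 weeks after tumour onset. The 5 KO libraries had the genotype PyMT; RHBDL4 -/- and the 5 WT libraries had the genotype PyMT; RHBDL4 +/+. All of the mice carried MMTV-PyMT, in which a mammary promoter drives the middle T oncogene of polyomavirus, so the WT tumours are oncogene-driven too. RHBDL4 is a rhomboid protease in the membrane of the endoplasmic reticulum, encoded by Rhbdd1. Total counts ran from 27.4 to 35.0 M per library in KO and from 25.7 to 43.3 M in WT. The labels do not tie libraries to animals, 3 pairs of libraries within a group share a leading number in their names, and p-values measure the spread between these libraries, which may be technical. Every library has a batch label of its own, so batch and group cannot be told apart.

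The pentose phosphate pathway branches from glycolysis at glucose 6-phosphate. Its oxidative branch makes NADPH, which cells spend on fatty acid and sterol synthesis and on keeping glutathione and thioredoxin reduced. Its non-oxidative branch interconverts sugar phosphates and supplies ribose 5-phosphate for nucleotides, and both are used heavily by growing tumours and by fat-making tissues such as the lactating mammary gland. Cytosolic isocitrate dehydrogenase and malic enzyme make NADPH outside the pathway.

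In the deposited counts, with library sizes scaled by TMM, Rpe and Idh1 were at lower levels in every KO tumour than in any WT tumour. Groups that did not overlap were found for 1.99% of all genes tested. On scaling by library size alone, the groups of both genes overlapped across the 10 libraries. Their KO means were 60.1% and 63.2% of the mean in WT replicates 1 to 4. H6pd had a KO mean of 186% of the mean in WT replicates 1 to 4, but of 89.5% of the mean in all 5 WT libraries. The KO means of the other 7 genes ran from 81.8% of the mean in WT replicates 1 to 4 for Rpia to 100.1% for Taldo1. None of the 10 passed the threshold in edgeR, in either comparison. WT replicate 5 held the highest level of 8 of the 10 genes, up to 6.39 times the mean of the other WT libraries.

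The promoters of the 3 genes that stood out, and of Me1, are shown. They let the sequence of genes low, high or nearly level in KO, against WT replicates 1 to 4, be compared. Each runs from 250 bases before to 50 bases after the annotated start, 5′ to 3′, from RefSeq on GRCm38.p6. Capitals mark the GC box GGGCGG and the core of the antioxidant response element TGACNNNGC, on either strand.
Rpe promoter, chr1:66700581-66700880, plus strand: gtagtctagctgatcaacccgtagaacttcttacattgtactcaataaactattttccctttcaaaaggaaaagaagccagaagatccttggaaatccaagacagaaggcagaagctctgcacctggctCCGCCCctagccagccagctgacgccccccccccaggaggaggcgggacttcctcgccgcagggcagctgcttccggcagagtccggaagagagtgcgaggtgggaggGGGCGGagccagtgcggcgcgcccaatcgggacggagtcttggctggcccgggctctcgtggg
Idh1 promoter, chr1:65186430-65186729, minus strand: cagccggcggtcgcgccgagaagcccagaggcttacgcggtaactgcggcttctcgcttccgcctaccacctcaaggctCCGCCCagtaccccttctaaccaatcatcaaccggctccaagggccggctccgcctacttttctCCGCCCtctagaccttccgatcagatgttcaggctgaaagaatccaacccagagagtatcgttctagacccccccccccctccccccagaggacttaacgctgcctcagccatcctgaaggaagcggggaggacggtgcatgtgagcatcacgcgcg
H6pd promoter, chr4:150003187-150003486, minus strand: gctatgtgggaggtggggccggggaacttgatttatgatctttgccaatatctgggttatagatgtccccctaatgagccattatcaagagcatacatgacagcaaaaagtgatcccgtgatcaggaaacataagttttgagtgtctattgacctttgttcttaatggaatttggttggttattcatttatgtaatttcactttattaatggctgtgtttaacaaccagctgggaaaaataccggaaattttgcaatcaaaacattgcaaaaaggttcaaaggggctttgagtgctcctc
Me1 promoter, chr9:86695865-86696164, minus strand: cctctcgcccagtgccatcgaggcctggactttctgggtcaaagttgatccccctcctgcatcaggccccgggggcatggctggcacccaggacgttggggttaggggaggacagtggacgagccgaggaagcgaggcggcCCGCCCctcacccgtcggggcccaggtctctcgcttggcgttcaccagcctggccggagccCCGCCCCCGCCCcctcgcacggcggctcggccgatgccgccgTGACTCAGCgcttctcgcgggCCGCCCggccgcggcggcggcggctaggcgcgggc
The RefSeq table lists 1 promoter for Rpe and for H6pd and 2 each for Idh1 and Me1, of which 1 is shown. The Rpe and Idh1 promoters shown each held 2 GC boxes, that of Me1 held 4 and that of H6pd held none. Taldo1 and Pgls, with KO means of 100.1% and 98.3% of WT replicates 1 to 4, were nearer level than Me1 at 96.2%. The promoters of Taldo1 and Pgls, not shown, each held 1 GC box and 0 antioxidant cores, so Me1 does not stand for the level genes. The Idh1 promoter not shown held 1 GC box, and the Me1 promoter not shown held 0 GC boxes and 0 antioxidant cores. Over all 32851 promoters in the table, 35.7% held a GC box, against 10 of 13 promoters of the members. The promoters in the table were not limited to genes that passed the low-count filter, as all members did. A share among tested genes is not reported here. The antioxidant core, the letters to which NRF2 is known to bind, was found in 12.4% of all promoters and in 3 of the 13, 1 each of G6pdx, Pgd and Me1. In the Me1 promoter shown it begins at -6 from the start on the plus strand of the gene. The E-box CACGTG was found in 7.15% of all promoters and in 0 of the 13. In the 4 promoters shown, no match of one motif overlapped a match of another. A match is a run of letters and was not tested for binding.

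Rhbdd1, the targeted gene, had 22.3, 15.1, 17.3, 13.2 and 16.8 CPM (counts of the gene per M counts of the library, with library sizes scaled by TMM over the 10 libraries) in KO replicates 1 to 5, against 45.4, 38.6, 33.7, 33.5 and 25.0 CPM in WT replicates 1 to 5. Every KO library lay below every WT library, and the KO mean was 48.1% of the WT mean. The log2 fold change of KO over WT was -1.05 ± 0.20 (SE; edgeR adjusted p = 0.669, n = 5 each) and -1.14 ± 0.16 (adjusted p = 0.113) without WT replicate 5. Rhbdd1 passed the threshold in DESeq2 (adjusted p = 0.00212, and 5.18e-06 without WT replicate 5) and in limma-voom with quality weights (adjusted p = 0.0360, and 0.0249 without WT replicate 5). Without WT replicate 5 it was not called with libraries of the same leading number summed (edgeR adjusted p = 0.932). The same held with the leading number as a random block (limma-voom adjusted p = 0.295). Transcript remained in all KO libraries, and the labels used here do not name the deleted part of the gene.

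WT replicate 5 stood apart from the other 9 libraries before any comparison. The summed level of 12 luminal epithelial genes, led by Epcam and Krt18, ran from 4930.3 to 8400.0 CPM in KO and from 5368 to 6570.2 CPM in WT replicates 1 to 4, against 149.6 CPM in WT replicate 5. Its sum of 12 skeletal muscle genes, led by Acta1 and Myh4, was 147550.0 CPM, and its sum of 12 adipocyte genes, led by Fabp4 and Car3, was 31503 CPM. Its TMM factor was 0.588, against 1.01 to 1.10 in the others. Each member is therefore compared with and without this library, and the part of these tissues in its values was not tested. In bulk tissue, fewer cells of a type and less RNA per cell cannot be told apart.

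Across the whole table, edgeR called 0 of 18577 genes with all 10 libraries (0%) and 2 of 19016 without WT replicate 5 (0.0105%), at a Benjamini-Hochberg adjusted p under 0.05. At an unadjusted p under 0.05 there were 1301 and 2204 genes. DESeq2 called 34 genes with all libraries (0.154%) and 327 without that library (1.66%). Weighting each library by its quality in limma-voom gave 17 genes (0.0915%) and 142 genes (0.747%).

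Of the 10 members, 0 were called by edgeR in either comparison, and 3 had an unadjusted p under 0.05 in each. With all 10 libraries all 10 fold changes were below 0 and their median was -0.48 on the log2 scale, against -0.06 over all genes tested. Without WT replicate 5, 8 were below 0 and 2 above, with a median of -0.10 against 0.03 over all genes. The KO and WT levels did not overlap for Rpe and Idh1 with all 10 libraries, both lower in KO. That held for 1.99% of all genes tested, 1.18% lower and 0.807% higher in KO. Without WT replicate 5 the levels did not overlap for Rpe and Idh1, lower in KO, and H6pd, higher in KO. Over all genes this share was 5.44%, with 3.44% lower and 2.00% higher.

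**Figure D1:**
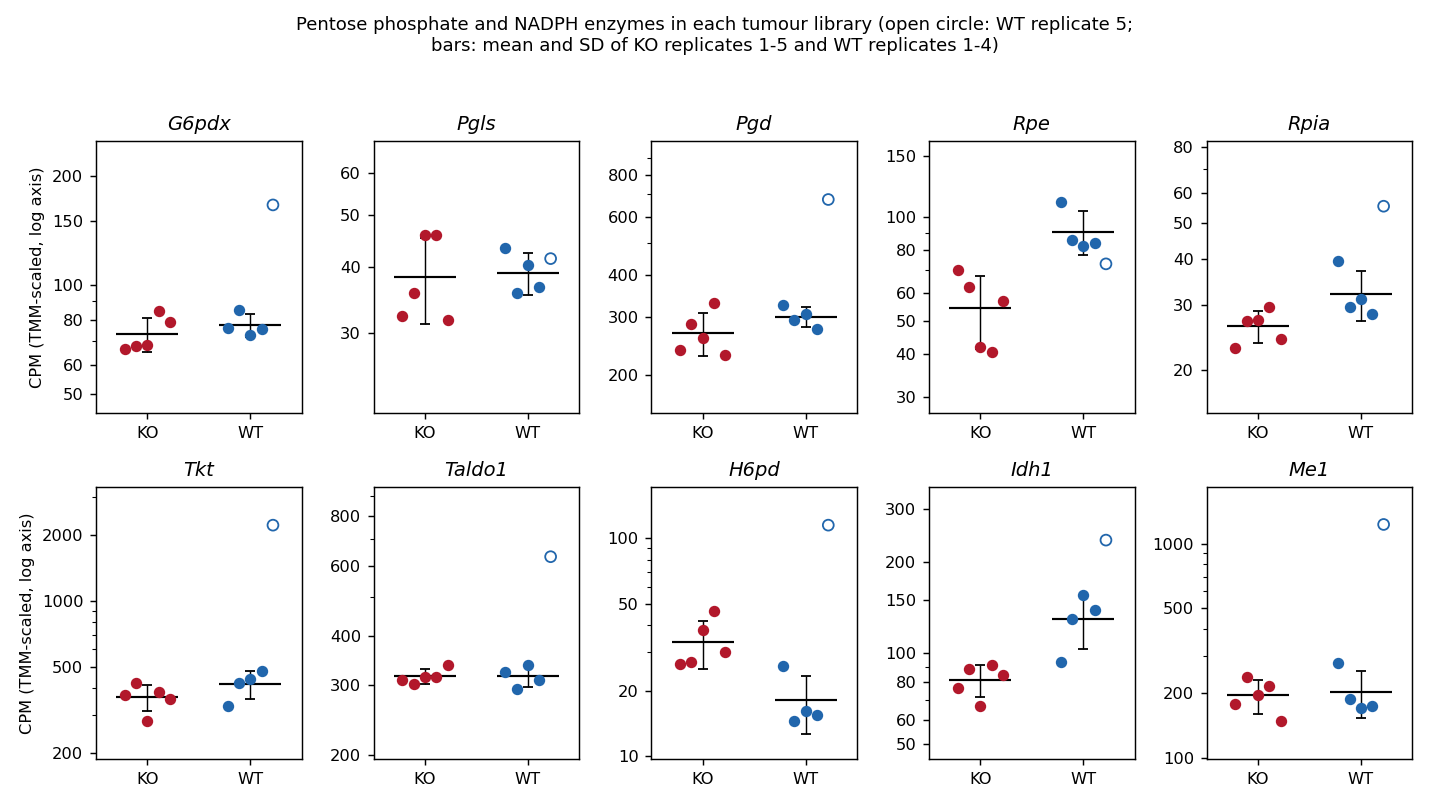
Level of each gene in each library, in TMM-scaled CPM on a log axis whose range differs between panels; filled points are KO replicates 1 to 5 (left) and WT replicates 1 to 4, open circles WT replicate 5, and bars the mean and SD of the filled points. The KO points of Rpe and Idh1 lie below all WT points, those of H6pd lie above WT replicates 1 to 4, and the open circle is the highest point in 8 of the 10 panels.

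G6pdx codes for glucose 6-phosphate dehydrogenase, which commits glucose 6-phosphate to the pathway and makes its first NADPH. It had 66.3, 67.7, 68.3, 84.5 and 78.7 CPM in KO replicates 1 to 5, against 76.2, 85.3, 72.5, 75.5 and 166 CPM in WT replicates 1 to 5. The KO range overlaps that of WT replicates 1 to 4, and WT replicate 5 is far above both. The log2 fold change was -0.38 ± 0.24 (SE; edgeR adjusted p = 0.681) and -0.06 ± 0.10 (adjusted p = 0.832, 95% interval -0.26 to 0.13) without WT replicate 5. In the GENCODE annotation 13.6% of its exon bases lie opposite exons of Ikbkg. No source used here gives the strand setting of the counting, so reads of the 2 genes could have been mixed.

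Pgls codes for 6-phosphogluconolactonase, which opens the lactone that G6pdx makes. It had 32.3, 35.7, 45.8, 45.9 and 31.8 CPM in KO replicates 1 to 5, against 43.4, 35.7, 40.2, 36.6 and 41.4 CPM in WT replicates 1 to 5. The groups overlap throughout, and WT replicate 5 lies inside the range of the others. For Pgls the log2 fold change came to -0.04 ± 0.15 (SE; edgeR adjusted p = 0.934) and -0.01 ± 0.14 (adjusted p = 0.987, 95% interval -0.29 to 0.27) without that library. It shares 20.6% of its exon bases with Fam129c on the same strand, and how far this affects its counts is not known.

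Pgd codes for 6-phosphogluconate dehydrogenase, which makes the second NADPH of the branch and leaves ribulose 5-phosphate. It had 238, 284, 259, 329.7 and 230.0 CPM in KO replicates 1 to 5, against 324, 292, 305, 276 and 676 CPM in WT replicates 1 to 5. KO replicate 4 is above every one of WT replicates 1 to 4, and 3 of the KO libraries are below all of them. KO over WT, the log2 fold change of Pgd was -0.48 ± 0.26 (SE; edgeR adjusted p = 0.669) and -0.14 ± 0.12 (adjusted p = 0.675, 95% interval -0.37 to 0.09) without WT replicate 5.

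H6pd codes for hexose 6-phosphate dehydrogenase, which performs the first steps of the oxidative branch inside the endoplasmic reticulum, the compartment of RHBDL4, and supplies NADPH there. It had 26.6, 27.2, 37.9, 46.2 and 30.2 CPM in KO replicates 1 to 5, against 26.1, 14.6, 16.1, 15.4 and 115 CPM in WT replicates 1 to 5. Each KO library lay above each of WT replicates 1 to 4, by a narrow margin between KO replicate 1 and WT replicate 1, and WT replicate 5 lay above all. KO averaged 33.6 ± 8.35 CPM (SD, n = 5) and WT replicates 1 to 4 averaged 18.1 ± 5.42 CPM (SD, n = 4). For H6pd the log2 fold change came to 0.91 ± 0.23 (SE; edgeR adjusted p = 0.285) without WT replicate 5 and -0.16 ± 0.59 (adjusted p = 0.939) with it. In this fit that library sets the direction. With all 10 libraries H6pd was at 0.89 in limma-voom with quality weights, 0.33 with a random block and 0.29 with library size alone. It ran from -0.66 to -0.06 in the other settings that kept all 10 libraries. Without WT replicate 5 H6pd passed the threshold in DESeq2 (0.90, adjusted p = 0.0335) and in limma-voom with quality weights (0.91, adjusted p = 0.0323). These calls take libraries that share a leading number as separate. With such libraries summed (edgeR adjusted p = 0.932) or the leading number as a random block (limma-voom adjusted p = 0.747), H6pd was not called.

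Adipocyte genes were also higher in some KO libraries. Their sum was 169, 3100.4, 362, 3012 and 205 CPM in KO replicates 1 to 5, against 193, 155, 601, 281 and 31503 CPM in WT replicates 1 to 5, with all 12 genes above 0 on the log2 fold scale without WT replicate 5, 0 of them called, and none of the 12 at 0 in every library. KO replicates 2 and 4 were high in fat genes, while KO replicates 1, 3 and 5 lay within the range of WT replicates 1 to 4. In those 3 KO libraries H6pd was 26.6, 37.9 and 30.2 CPM, above the 26.1 CPM that was the highest of WT replicates 1 to 4. The summed neutrophil genes were 214 CPM in KO replicate 3, 313 CPM in KO replicate 4 and 1264 CPM in WT replicate 1. WT replicate 1 was the WT library with the highest H6pd after WT replicate 5. Elsewhere the sums ran from 11.3 to 108 CPM. In KO replicates 3 and 4 and WT replicate 1, S100a8 alone was 188, 273 and 1242 CPM. S100a9 was 17.5, 24.0 and 16.3 CPM in them, and Csf3r, of the same list, 4.10, 5.54 and 3.83 CPM. The summed skeletal muscle genes were 87.6, 5.52, 174, 1652 and 7.17 CPM in KO replicates 1 to 5, against 5.52 to 94.3 CPM in WT replicates 1 to 4 and 147550.0 CPM in WT replicate 5. The 3 libraries highest in this sum, WT replicate 5 and KO replicates 4 and 3, were also the 3 highest in H6pd. All 11 muscle genes tested had a log2 fold change above 0 without WT replicate 5 (median 3.11, 0 called), and none of the 12 listed was at 0 in every library. KO replicates 1, 2 and 5 had muscle sums below the 94.3 CPM that was the highest of WT replicates 1 to 4, and their H6pd of 26.6, 27.2 and 30.2 CPM was above each of those WT libraries. Beyond these values, the part of fat, neutrophils and muscle in the H6pd levels was not tested.

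Of the 4 genes listed as partners of H6pd in the endoplasmic reticulum, 0 were called, and without WT replicate 5 their median log2 fold change was -0.07. Hsd11b1, which uses the NADPH made by H6pd to reactivate glucocorticoids, had 9.46, 46.8, 24.0, 50.9 and 8.57 CPM in KO replicates 1 to 5, against 11.2, 4.50, 8.11, 5.41 and 223 CPM in WT replicates 1 to 5. KO replicates 2, 3 and 4 were above WT replicates 1 to 4, and the other KO libraries lay within their range. Its log2 fold change was 1.95 ± 0.59 (SE; edgeR adjusted p = 0.317) without WT replicate 5 and -0.85 ± 1.15 (adjusted p = 0.823) with it, so in edgeR that library sets the direction. The 2 KO libraries with the most fat-gene RNA were the 2 highest in Hsd11b1. The glucose 6-phosphate transporters Slc37a4, Slc37a2 and Slc37a1 had log2 fold changes of -0.16, -0.19 and 0.03 without WT replicate 5 (adjusted p = 0.689, 0.806 and 0.967).

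Rpe codes for ribulose 5-phosphate epimerase, which turns ribulose 5-phosphate into xylulose 5-phosphate, a substrate of transketolase. It had 70.2, 62.7, 41.9, 40.5 and 57.1 CPM in KO replicates 1 to 5, against 110.5, 85.8, 82.6, 83.8 and 73.1 CPM in WT replicates 1 to 5. Every KO library lay below every WT library, KO replicates 3 and 4 lowest, and here WT replicate 5 was the lowest of its group. KO averaged 54.5 ± 13.0 CPM and WT 87.1 ± 13.9 CPM (SD, n = 5 each). The log2 fold change was -0.68 ± 0.19 (SE; edgeR adjusted p = 0.669) with all libraries and -0.72 ± 0.18 (adjusted p = 0.285) without WT replicate 5. Neither DESeq2 nor limma-voom called it. On scaling by library size alone, chosen after the data were seen, the groups of all 10 libraries overlapped, with 42.5 CPM in WT replicate 5.

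Rpe shares 17.9% of its exon bases with Kansl1l on the opposite strand, whose log2 fold change without WT replicate 5 was 0.43 ± 0.23 (edgeR adjusted p = 0.496). Proliferation genes ran the same way as Rpe and Idh1. Their summed level was 811, 688, 570.2, 442 and 863 CPM in KO replicates 1 to 5, against 1025, 1124, 1135, 1276 and 74.0 CPM in WT replicates 1 to 5. All 12 of the list, led by Mki67 and Top2a, were lower in KO without WT replicate 5, and none was at 0 in every library. In that edgeR fit 1 was called, against 0.0105% of all genes. An unadjusted p under 0.05 was found for 11, against 2204 of 19016 genes. The groups of 7 did not overlap, all lower in KO, against 3.44% of all genes. With all 10 libraries the 12 were also lower in KO, with 0 called and 0 not overlapping. The 2 KO libraries lowest in Rpe were also the 2 lowest in this sum, while WT replicate 5 had the lowest sum of all and 73.1 CPM of Rpe. Idh1 was 67.1 CPM in KO replicate 3 and 91.4 CPM in KO replicate 4, the lowest and the highest of KO. In WT replicate 5 it was 236 CPM, the highest of all. The part of proliferation in the Rpe and Idh1 levels was not tested.

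Rpia codes for ribose 5-phosphate isomerase, which makes the ribose 5-phosphate of nucleotides. It had 22.9, 27.1, 27.2, 29.6 and 24.3 CPM in KO replicates 1 to 5, against 39.4, 29.6, 31.0, 28.3 and 55.4 CPM in WT replicates 1 to 5. The groups overlap only through KO replicate 4 and WT replicate 4. For Rpia the log2 fold change came to -0.49 ± 0.20 (SE; edgeR adjusted p = 0.669) and -0.27 ± 0.13 (adjusted p = 0.454, 95% interval -0.52 to -0.02) without WT replicate 5.

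Tkt codes for transketolase, which moves 2-carbon units between sugar phosphates. It had 372, 421, 283, 381 and 354 CPM in KO replicates 1 to 5, against 331, 419, 441, 475 and 2227 CPM in WT replicates 1 to 5. KO lies within or just below WT replicates 1 to 4, and WT replicate 5 is 5.35 times their mean. KO over WT, the log2 fold change of Tkt was -1.10 ± 0.52 (SE; edgeR adjusted p = 0.669) and -0.18 ± 0.14 (adjusted p = 0.636, 95% interval -0.46 to 0.09) without that library.

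Taldo1 codes for transaldolase, the other enzyme of the non-oxidative exchange. It had 309, 303, 316, 316 and 338 CPM in KO replicates 1 to 5, against 324, 294, 338, 309.8 and 633 CPM in WT replicates 1 to 5. The groups coincide apart from WT replicate 5, with a KO mean of 316 ± 13.0 CPM and a mean of 316 ± 18.7 CPM in WT replicates 1 to 4. For Taldo1 the log2 fold change came to -0.26 ± 0.22 (SE; edgeR adjusted p = 0.732) and 0.02 ± 0.08 (adjusted p = 0.947, 95% interval -0.14 to 0.17) without that library.

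Idh1 codes for the cytosolic, NADP-dependent isocitrate dehydrogenase. It had 76.7, 88.6, 67.1, 91.4 and 84.7 CPM in KO replicates 1 to 5, against 93.3, 129.5, 155, 139 and 236 CPM in WT replicates 1 to 5. Every KO library lay below every WT library, though KO replicate 4 and WT replicate 1 are close. KO averaged 81.7 ± 9.86 CPM, against 151 ± 52.8 CPM in all WT libraries (SD, n = 5 each) and 129 ± 26.2 CPM in WT replicates 1 to 4. The log2 fold change was -0.88 ± 0.23 (SE; edgeR adjusted p = 0.669) with all libraries and -0.64 ± 0.16 (adjusted p = 0.284) without WT replicate 5. With all libraries limma-voom with quality weights called it (-0.80, adjusted p = 0.0360), and DESeq2 did not. Without WT replicate 5 DESeq2 (-0.65, adjusted p = 0.0330) and limma-voom (-0.78, adjusted p = 0.0277) both called it. These calls take libraries that share a leading number as separate. With such libraries summed (edgeR adjusted p = 0.932) or the leading number as a random block (limma-voom adjusted p = 0.756), Idh1 was not called. On scaling by library size alone its groups overlapped in both comparisons.

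Me1 codes for cytosolic malic enzyme, which makes NADPH from malate and is abundant in fat. It had 178, 237, 196, 217 and 148 CPM in KO replicates 1 to 5, against 278, 188, 171, 175 and 1228 CPM in WT replicates 1 to 5. The KO range overlaps that of WT replicates 1 to 4, where WT replicate 1 stands above the rest, and WT replicate 5 is 6.06 times their mean. KO over WT, the log2 fold change of Me1 was -1.06 ± 0.57 (SE; edgeR adjusted p = 0.669) and -0.04 ± 0.18 (adjusted p = 0.953, 95% interval -0.39 to 0.32) without that library.

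**Figure D2:**
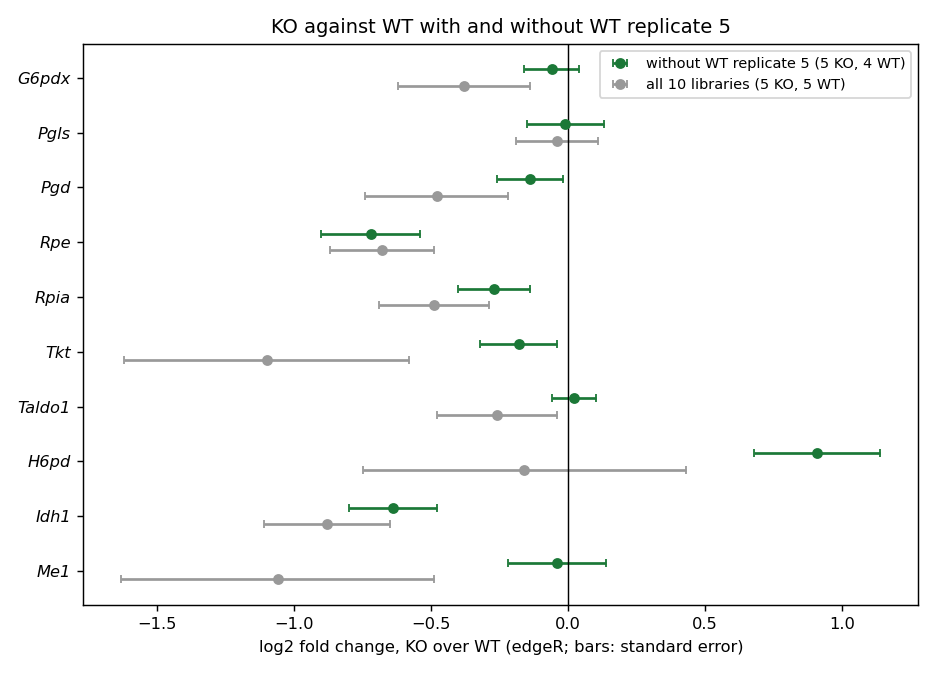
Log2 fold change of KO over WT with its standard error (edgeR), without WT replicate 5 (green) and with all 10 libraries (grey), genes running down the page in pathway order. Tkt and Me1 lie at -1.10 and -1.06 with all libraries and at -0.18 and -0.04 without WT replicate 5, H6pd is at -0.16 with it and 0.91 without it, and Rpe is at -0.68 and -0.72.

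WT replicate 5 was above the 9 other libraries in 8 of the 10 genes, the exceptions being Pgls and Rpe. Relative to the mean of WT replicates 1 to 4 it held 6.39 times the H6pd, 6.06 times the Me1 and 5.35 times the Tkt, and between 1.73 and 2.26 times the G6pdx, Pgd, Rpia, Taldo1 and Idh1. Scaled by library size alone it stayed above the others in 5, namely G6pdx, Pgd, Tkt, H6pd and Me1. The summed level of the 10 genes was 1392, 1554, 1342, 1582 and 1377 CPM in KO replicates 1 to 5, against 1645, 1573, 1652, 1614 and 5451 CPM in WT replicates 1 to 5. Tkt made up 40.9% of that sum in WT replicate 5, against 21.1% to 27.1% in KO and 20.1% to 29.4% in WT replicates 1 to 4.

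**Figure D3:**
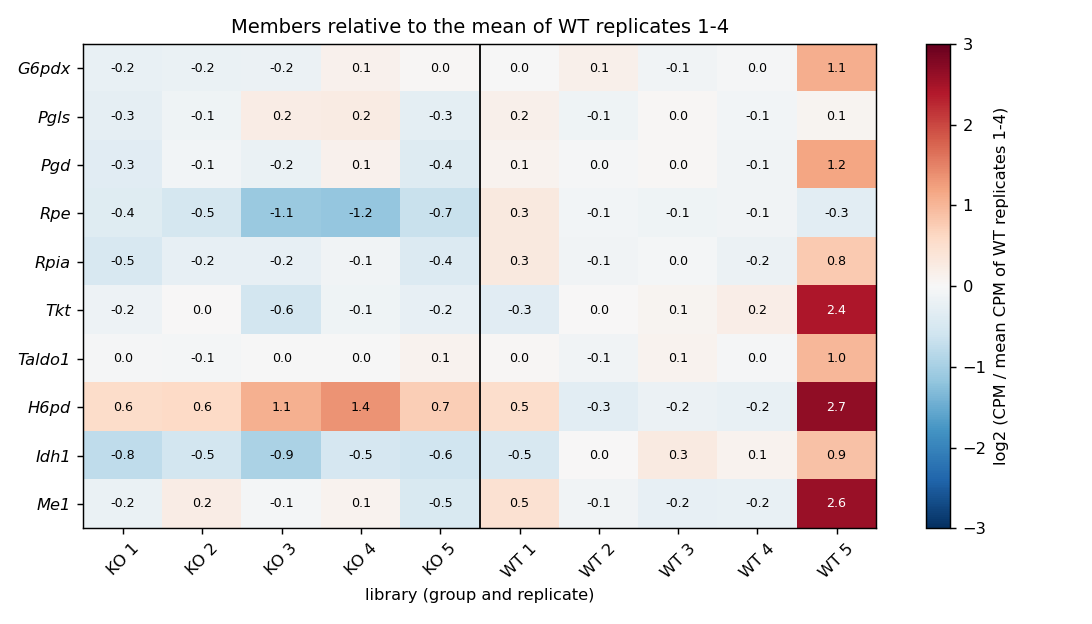
Each cell is the log2 ratio of a gene's CPM to its mean in WT replicates 1 to 4, with genes in rows and libraries in columns, KO left of the line. The Rpe and Idh1 rows are below 0 in all 5 KO libraries, the H6pd row is above 0 in all 5, and the WT replicate 5 column holds the largest ratios, 6.39-fold for H6pd and 6.06-fold for Me1.

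Within the set, levels were compared per kilobase of exon (CPM per kb). The length of a gene was all of its annotated exon bases in GENCODE, over all transcripts, such as 2.17 kb for Taldo1 and 7.36 kb for Tkt. It can exceed the length of the transcripts present in the tumours, so the order depends on this choice of length. By the median over the 9 libraries without WT replicate 5, Taldo1 was highest at 146 CPM per kb, ahead of Tkt at 51.8, Me1 at 48.9, Pgd at 44.1, Idh1 at 33.0, G6pdx at 24.5 and Rpe at 22.6. Pgls at 9.71, Rpia at 5.28 and H6pd at 5.08 CPM per kb were lowest. Neighbours in this order overlapped across the 9 libraries, except Taldo1 and Tkt, Rpe and Pgls, and Pgls and Rpia. The level of H6pd per kb was 6.42 ± 1.59 in KO (SD, n = 5) and 3.45 ± 1.03 in WT replicates 1 to 4, beside 4.89 ± 0.493 in KO and 5.99 ± 0.934 in WT replicates 1 to 4 for Rpia.

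Idh1 and Rpe lie on chromosome 1, as does Rhbdd1, with 5 tested genes between Idh1 and Rpe and 96 between Rpe and Rhbdd1. The gene order is that of GRCm38, while the counts were made on GRCm39. Without WT replicate 5, 8 of the 10 nearest tested genes of Rpe and 8 of the 10 of Idh1 had a fold change above 0, with medians of 0.40 and 0.42 on the log2 scale. The same 5 genes, those between the pair, are in both sets, and 10124 of all 19016 genes tested were above 0. Between the pair lies Map2, a microtubule-associated protein of neurons, at 1.01 ± 0.11 (SE; edgeR adjusted p = 0.0413), which rose in KO. The number of genes called was 0 when any KO library or WT replicate 1, 2 or 3 was left out too. Pikfyve, a lipid kinase beside Idh1, was at 0.01 (adjusted p = 0.966). Gm37570, 2 tested genes beyond Rpe, was at -1.93 ± 0.32 (adjusted p = 0.160), with groups that did not overlap. Beside Rhbdd1, 6 of 10 neighbours were above 0 with a median of 0.06, and the groups overlapped in all 10. Of 1172 tested genes on chromosome 1, 4.44% were lower in KO and 1.62% higher with no overlap of the groups. Over all 19016 genes tested these shares were 3.44% and 2.00%.

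**Figure D4:**
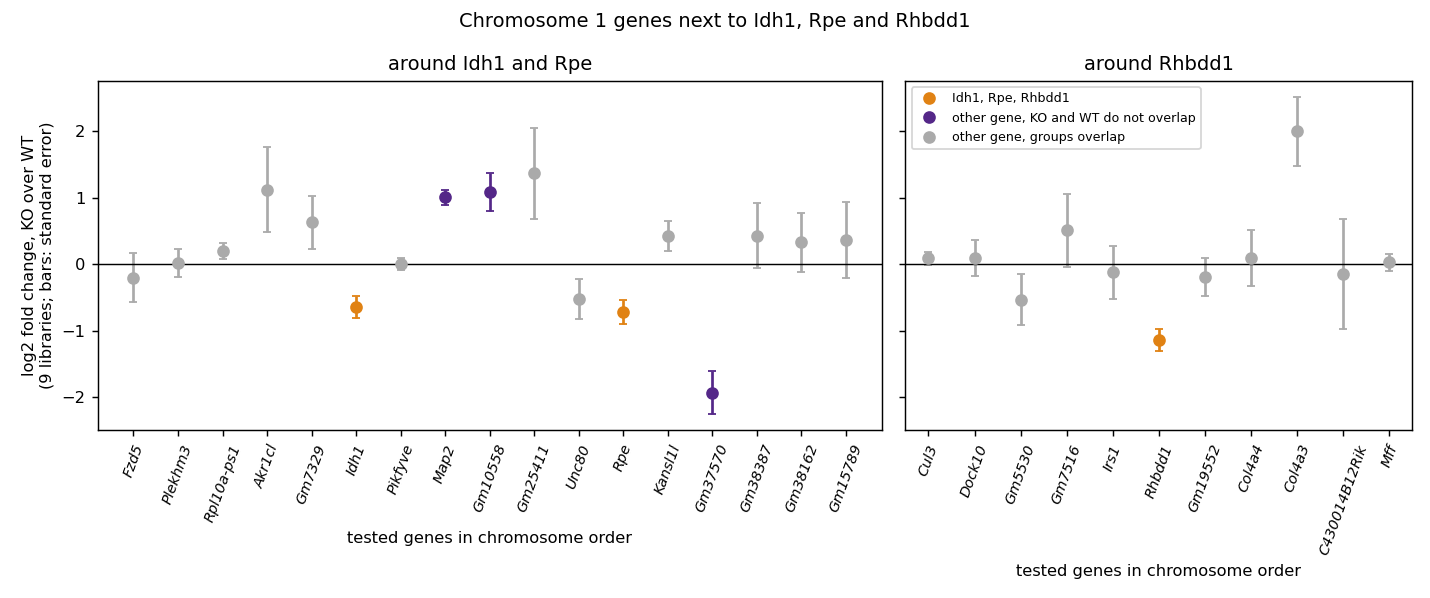
Log2 fold change of KO over WT with its standard error, without WT replicate 5, for tested genes in chromosome order around Idh1 and Rpe and around Rhbdd1; orange marks those 3 genes and purple other genes whose groups do not overlap. Idh1 at -0.64 and Rpe at -0.72 lie on either side of Map2 at 1.01.

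Of 12 tested genes around the pathway, 0 were called in either comparison, and without WT replicate 5 1 had a fold change above 0 and 11 below (median -0.19). Prps1, which makes phosphoribosyl pyrophosphate from ribose 5-phosphate, averaged 38.7 ± 7.33 CPM in KO and 51.2 ± 3.50 CPM in WT replicates 1 to 4 (log2 fold change -0.39 ± 0.14 SE, edgeR adjusted p = 0.357). Hk1, a hexokinase, was at -0.18 (adjusted p = 0.524; 0.04 with all 10 libraries, adjusted p = 0.974), Rbks, a ribokinase, at -0.38 (adjusted p = 0.587) and Pgm2, a phosphopentomutase, at -0.15 (adjusted p = 0.623). With all 10 libraries 9 of the 12 were below 0 (median -0.20), Prps1 at -0.55 (edgeR adjusted p = 0.669), and Tktl1 and Tktl2, relatives of transketolase, did not pass the low-count filter.

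Among 12 other NADPH producers and NAD kinases, 0 were called, 6 were above 0 and 6 below without WT replicate 5 (median -0.01). Nadk, which makes cytosolic NADP from NAD, averaged 137 ± 14.3 CPM in KO and 174 ± 24.6 CPM in WT replicates 1 to 4 (-0.33 ± 0.12 SE, edgeR adjusted p = 0.353). Mthfd1, of the folate cycle, averaged 58.4 ± 18.1 CPM in KO and 87.1 ± 10.3 CPM in WT replicates 1 to 4 (-0.56 ± 0.22 SE, adjusted p = 0.378). Me2, the mitochondrial malic enzyme, was at -0.42 (adjusted p = 0.345). Aldh1l1, a folate dehydrogenase, was at 1.12 (adjusted p = 0.353), and its highest KO values were in replicates 2 and 4, which were high in fat genes. With all 10 libraries Aldh1l1 was at -1.12 (edgeR adjusted p = 0.740), the opposite direction, while Nadk, Mthfd1 and Me2 were at -0.38, -0.50 and -0.35 (adjusted p = 0.669 each).

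Of 15 genes of NRF2, glutathione and thioredoxin, which spend NADPH or control its supply, 0 were called, 6 were above 0 and 9 below without WT replicate 5 (median -0.05). Nfe2l2, which codes for NRF2, averaged 80.3 ± 13.6 CPM in KO and 113 ± 40.2 CPM in WT replicates 1 to 4 (-0.48 ± 0.21 SE, edgeR adjusted p = 0.433), a mean raised by 174 CPM in WT replicate 1. Prdx1, a peroxiredoxin, was at -0.24 (adjusted p = 0.376), Txnrd1, thioredoxin reductase, at -0.19 (adjusted p = 0.421) and Slc7a11, the cystine transporter, at 0.50 (adjusted p = 0.519). Nqo1, an NRF2 target, was at -0.01 ± 0.27 (adjusted p = 0.992), and at 0.20 ± 0.39 (adjusted p = 0.879) with all 10 libraries.

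Of 13 genes of NADPH-using lipid synthesis and its regulators, 0 were called, 8 were above 0 and 5 below without WT replicate 5 (median 0.11). With all 10 libraries 11 were below 0 and the median was -1.27. Fasn, fatty acid synthase, had 358, 791, 162, 280.5 and 218 CPM in KO replicates 1 to 5, against 215, 239, 259, 272 and 8029 CPM in WT replicates 1 to 5. The groups overlap apart from WT replicate 5 (0.57 ± 0.41 SE without it, edgeR adjusted p = 0.611, and -2.32 ± 1.16 SE with it, adjusted p = 0.669). Slc25a1, the citrate carrier, was at 0.30 (adjusted p = 0.524) without WT replicate 5 and at -1.49 (adjusted p = 0.669) with it.

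**Figure D5:**
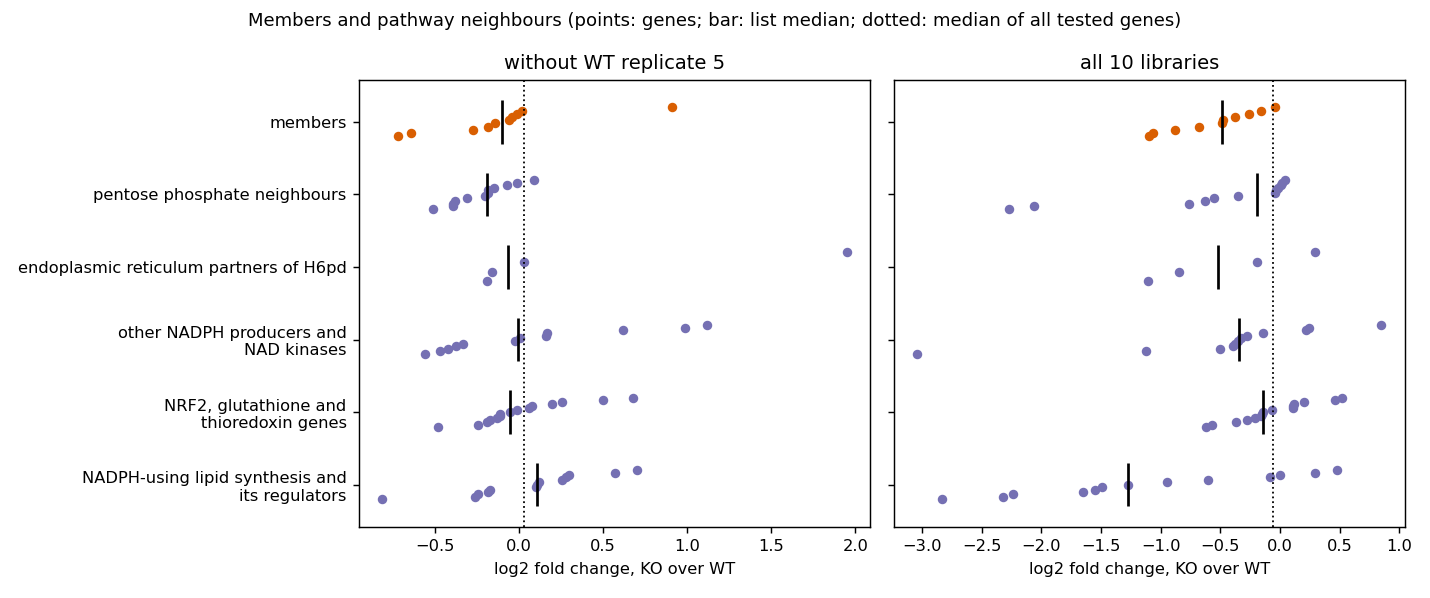
Log2 fold change of KO over WT for the 10 members and 5 lists of related genes, without WT replicate 5 (left) and with all 10 libraries (right), on axes of different range; points are genes, bars list medians and the dotted line the median of all genes tested. The median of the lipid list is 0.11 on the left and -1.27 on the right.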

How the data were processed

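Poly(A) RNA of 10 whole tumours was sequenced as stranded libraries, per the labels' protocols. The authors deposited raw counts per Ensembl gene, not normalized, with 1 column per library. Tools listed in the submitters' processing notes are STAR, featureCounts, FastQC and DESeq2, with the build GRCm39. Their versions, the annotation release, the strand setting and the handling of multi-mapping reads are not given in any source used here, so overlapping or near-identical genes may share counts.

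Symbols were matched for 52029 of 57010 genes, which held 99.66% of counts, and the symbol Nnt stood for 2 identifiers, of which the one with more counts was used. KO and WT libraries were grouped by the genotype label. edgeR 4.0.16 (R 4.3.3) fitted KO over WT by the quasi-likelihood F-test with TMM scaling and filterByExpr (minimum count 10), with Benjamini-Hochberg adjustment over all genes tested and a threshold of 0.05. This was done with all 10 libraries and without WT replicate 5. CPM uses the scaled library size of the 10 libraries, and non-overlap was counted on the scale of each fit. Total counts of 25.7 to 43.3 M make counting error small beside the spread between libraries. A run on simulated data required only that planted changes came out mostly with the right sign. It set no requirement on how many of them were called, and that share is not reported here.

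The members, lists and tests were chosen with earlier results of these data known. Genes named were Rhbdd1, the members, the 4 genes of smallest p of each related list, the 2 most abundant of each marker list described, and the chromosome neighbours, 5 on each side. Nqo1 was added after its values were seen. Some genes that this rule names are not reported here. Other settings tried were DESeq2 1.42.0, RLE scaling, limma-voom (limma 3.58.1) with sample quality weights, 2 other low-count filters, leading numbers summed or as a random block, each library left out, and, chosen after the data were seen, library size alone. Exon lengths, overlaps and gene order came from GENCODE on GRCm38, and motif searches used RefSeq promoters of GRCm38.p6, whereas the counts are on GRCm39.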

Additional observations from a re-analysis of the deposited data

Results flagged for a closer look

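In 9 of 33 groups of libraries tested, the most extreme library lay further from its nearest neighbour than Dixon's 95% limit allows, and chance flags about 1 in 20 groups. The groups share libraries and genes, so these are not independent. Among the 5 WT libraries, replicate 5 was flagged for G6pdx at 166 CPM, Pgd at 676 CPM, Tkt at 2227 CPM, Taldo1 at 633 CPM, H6pd at 115 CPM and Me1 at 1228 CPM. Among WT replicates 1 to 4, replicate 1 was flagged for Rpe at 110.5 CPM, H6pd at 26.1 CPM and Me1 at 278 CPM. In WT replicate 1 the summed fibroblast genes, led by Col1a1 and Col3a1, were 190.0 CPM. That sum was 4090.0 to 7649.8 CPM in KO and 1777 to 7055 CPM in WT replicates 2 to 4. The neutrophil genes summed to 1264 CPM in WT replicate 1, of which S100a8 alone was 1242 CPM. S100a9 was 16.3 CPM there and Csf3r 3.83 CPM, so the neutrophil sum is mostly 1 gene. The part of these genes in the flagged levels was not tested.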

How the results depend on the processing

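The results counted here are the fold changes of Rhbdd1 and the members under each alternative. With all 10 libraries, 186 of 198 results kept their direction and side of the threshold, 9 changed sign and 3 passed the threshold. DESeq2 gave no adjusted p-value for Tkt, H6pd and Me1 with all 10 libraries, and these were counted as not passing. Genes called numbered 34 with DESeq2, 17 with limma-voom and 0 to 2 with a library left out, the 2 without WT replicate 5. Members called were 1 with limma-voom, Idh1, beside 0.0915% of all genes tested. Members whose groups did not overlap were 2 in the main fit, where the share over all genes was 1.99%. They were 1 without a low-count filter (Idh1) and 1 with library size alone (Rpia). With leading numbers summed, or without KO replicate 4 or WT replicate 4, they were 3 (Rpe, Rpia and Idh1). Without WT replicate 5 they were 3 (Rpe, H6pd and Idh1), with 5.44% over all genes. The share over all genes in the other settings is not reported here. The log2 fold change of H6pd was 0.89 with limma-voom, 0.33 with the leading number as a random block and 0.29 with library size alone. Me1 was at 0.00 with limma-voom and Pgls at 0.09 with library size alone. With a library left out Pgls ran from -0.12 to 0.02, Taldo1 from -0.34 to 0.02 and H6pd from -0.36 to 0.91.

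Without WT replicate 5, 169 of 187 results were unaffected in direction and side, 12 changed sign and 6 passed the threshold. Genes called numbered 327 with DESeq2, 142 with limma-voom, 3 without a low-count filter, 1 with library size alone, 0 with leading numbers summed or as a random block, and 0 to 1 with a library left out. Members called were 2 with DESeq2 and 2 with limma-voom, H6pd and Idh1, beside 1.66% and 0.747% of all genes tested. Me1 was at 0.04 with limma-voom, and Taldo1 at 0.00 without a filter and -0.01 with library size alone. With a library left out Pgls ran from -0.08 to 0.05, Taldo1 from -0.02 to 0.05 and Me1 from -0.12 to 0.15. The groups of Idh1 overlapped without KO replicate 1 and without KO replicate 3, where the scaling changes. The cause of these shifts was not tested. The median of all genes was 0.070 with library size alone against -0.059 with TMM in the 10 libraries.

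No paired analysis was possible because the replicate numbers only name libraries in accession order. Depth does not limit the members, whose lowest level was 14.6 CPM. The limits are 5 libraries a group, no label that ties them to animals, and WT replicate 5.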
